A study of Homo sapiens with 4 samples.

Results

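The level of every measured transcript was compared between MM.1S and ARP-1, a pair of human multiple myeloma cell lines, both carrying a hairpin RNA against MIF. The comparison used 2 of the 4 arrays of the series: the array titled MIF-KO MM.1S minus the array titled MIF-KO ARP-1. The other 2 arrays, titled CTR-KO MM.1S and CTR-KO ARP-1, held the same lines with a control hairpin. Cells of all 4 groups had been infected with a lentivirus that carries the hairpin, and those positive for green fluorescent protein (GFP) were sorted. A hairpin lowers a transcript without deleting its gene, so "KO" in these titles stands for a knockdown. Each line and hairpin had 1 array, so no difference below has a replicate check, an error or a test. The data cannot separate differences between the lines from differences between these 2 infected cultures.

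Multiple myeloma is a cancer of plasma cells, the antibody-secreting end stage of the B cell lineage. MIF (macrophage migration inhibitory factor) is a secreted cytokine that binds CD74 on the cell surface, with CD44 as signalling partner, and also the chemokine receptors CXCR2 and CXCR4. In myeloma it is known for a part in adhesion of the tumour cells to bone marrow stroma. MM.1S is a widely used glucocorticoid-sensitive line. It is known to carry a translocation that brings the transcription factor gene MAF under an immunoglobulin enhancer.

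For ARP-1 the description field contradicts the title and the genotype label on which hairpin an array held, and the titles were followed. MIF intensity was 1092 with the control and 541 with the MIF hairpin in ARP-1, and 1012 and 405 in MM.1S. Its level was thus lower on the array titled MIF-KO in each line, and the 2 MIF-KO arrays differed by -0.42 (log2, MM.1S minus ARP-1). With the ARP-1 arrays exchanged, MIF would be higher with the MIF hairpin than with the control hairpin in that line. Median intensities over all 53617 probe sets lay between 13.1 and 13.3. Plasma cell markers were uneven in level. IRF4, the transcription factor that myeloma cells depend on, was the highest, with log2 levels from 11.81 to 12.10. POU2AF1 had 5.03 to 5.22. On CTR-KO ARP-1 and MIF-KO ARP-1, SDC1 had 8.88 and 7.52, and CD38 6.83 and 5.39. Of 14 such markers, 10 were on the array and 8 reached the level filter given below, while CD27 and FCRL5 did not. Of 12 mature B cell markers, 7 were on the array and 0 reached the level filter. Of 17 T cell and NK cell markers, 10 were on the array and 4 reached it, namely NCAM1, CD7, CD8A and GNLY, with NCAM1 the highest. The summed intensity of that list was 613 on MIF-KO ARP-1 and 405 on MIF-KO MM.1S, of which NCAM1 gave 352 and 167. Of 15 myeloid markers, 11 were on the array and 4 reached it, with sums of 532 and 445. CD68, a lysosomal glycoprotein of macrophages, read 56.9 on MIF-KO ARP-1 and 122 on MIF-KO MM.1S, and VCAN, a proteoglycan, 327 and 168. The part of other cells in the results was not tested.

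Of 14884 genes with a symbol, the 7442 whose mean log2 intensity lay at or above the median of all genes (4.97) were compared. All differences below are MM.1S minus ARP-1 on the log2 scale, so a positive value means a higher level in MM.1S. On the MIF-KO arrays 937 genes lay at least 1.5-fold apart (12.6%): 612 were higher in MM.1S (8.22%) and 325 lower (4.37%). At least 2-fold apart were 171 genes (2.3%), 95 higher and 76 lower. At least 4-fold apart were 6 genes: ANXA1, TLR4 and ACTL8 were higher in MM.1S, and ASS1, CD96 and PAPSS2 lower. Differences ran from -2.39 to 2.50, with a median of 0.05 and quartiles of -0.16 and 0.29. At the 1.5-fold threshold itself, HYOU1 lay just inside at -0.59 and ATPAF1 just outside at -0.58.

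The lines lay closer together under the MIF hairpin than under the control hairpin, where 1663 genes (22.3%) were 1.5-fold apart, 834 higher in MM.1S (11.2%) and 829 lower (11.1%). Of the 6 possible pairs of arrays, 3 had fewer such genes than the MIF-KO pair and 2 had more. The closest pair was not of 1 line: CTR-KO MM.1S and MIF-KO ARP-1 had 494 genes 1.5-fold apart, fewer than the 596 between the 2 MM.1S arrays. The most distant pair was CTR-KO ARP-1 and MIF-KO ARP-1, with 1697. The ARP-1 arrays were thus not nearest neighbours. The order of the pairs rests on the titles: if the ARP-1 arrays are exchanged, the MIF hairpin pair has 778 genes apart and the control hairpin pair 494, so that the lines lie farther apart under the MIF hairpin. Whether each culture is the line its label names was not tested, and every MM.1S minus ARP-1 value here takes the labels as given.

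Relative to the control-hairpin arrays, most of the 937 genes followed a crossed order. In 710 of them (75.8%), the CTR-KO ARP-1 and MIF-KO MM.1S arrays were both above, or both below, the other 2 arrays. The 937 were picked for a gap between the MIF-KO arrays, and the crossed order needs such a gap. Their share is thus not a result separate from the choice. Over all 7442 genes, CTR-KO ARP-1 and MIF-KO MM.1S were both above in 2223 (29.9%) and both below in 1645 (22.1%). In comparison, both MM.1S arrays lay above both ARP-1 arrays in 1173 genes (15.8%) and below them in 863 (11.6%). The shares that follow are also of genes picked for a gap between the MIF-KO arrays, and were not computed over all genes. Among the 612 genes higher in MM.1S, CTR-KO ARP-1 was nearer to MIF-KO MM.1S than to MIF-KO ARP-1 in 506 (82.7%). Among the 325 lower genes this held for 270 (83.1%). The other control array was less one-sided: CTR-KO MM.1S was nearer to MIF-KO ARP-1 than to MIF-KO MM.1S in 387 of the 612 (63.2%) and 164 of the 325 (50.5%).

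**Figure D1:**
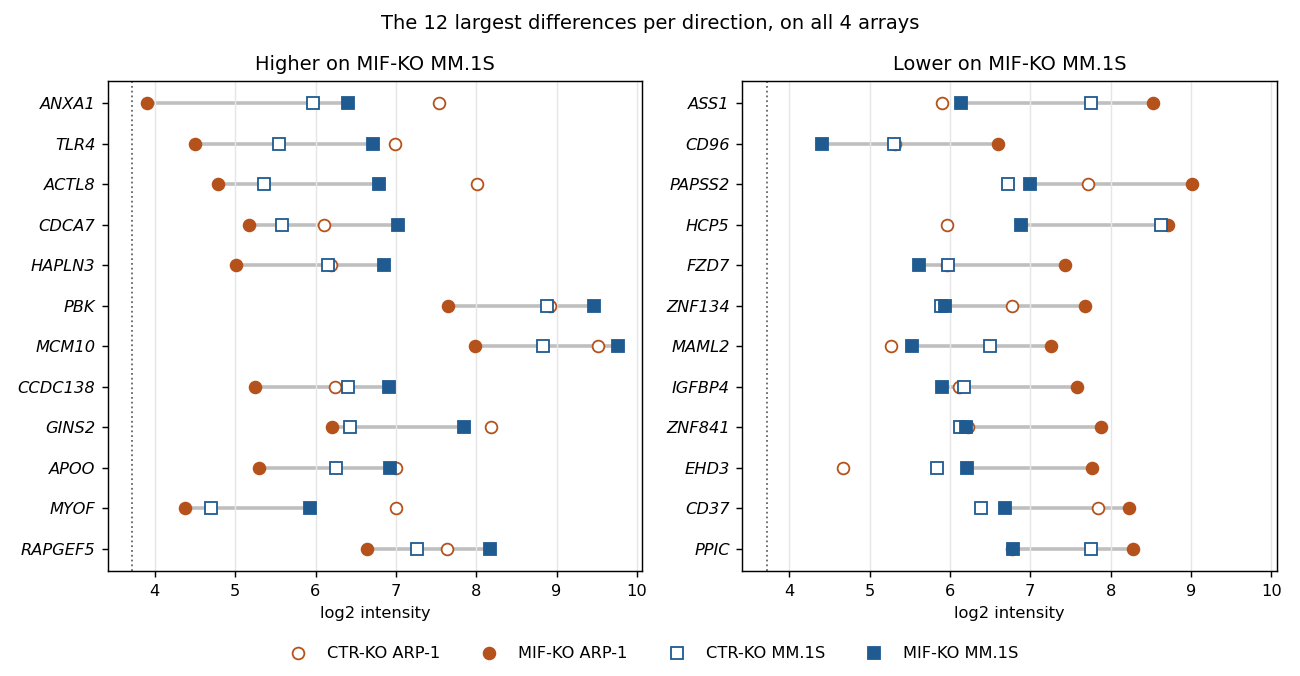
Log2 intensity on the 4 arrays for the 12 genes with the largest difference in each direction; circles are ARP-1, squares MM.1S, open symbols the control hairpin and filled symbols the MIF hairpin, with a gray bar joining the filled pair and a dotted line at the median of all probe sets (3.72). The open circle lies close to the filled square for many genes (TLR4, GINS2 and APOO among them), and symbols at nearly the same level cover each other, as for PPIC.

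For the genes below, intensities are given for ARP-1 with the control hairpin, ARP-1 with the MIF hairpin, MM.1S with the control hairpin and MM.1S with the MIF hairpin, in that order. ANXA1 encodes annexin A1, a calcium-dependent phospholipid-binding protein induced by glucocorticoids, and had intensities of 186, 15.0, 62.8 and 84.9. It was 2.50 higher on MIF-KO MM.1S than on MIF-KO ARP-1, where it lay near the array median. With log2(intensity + 16) that difference was 1.70. Its order under the control hairpin was the opposite (-1.56). TLR4, the receptor for bacterial lipopolysaccharide, read 127, 22.7, 46.8 and 105, a difference of 2.21 (4.63-fold). ACTL8, an actin-like gene of the cancer-testis group, read 258, 27.5, 41.0 and 110, a difference of 2.01. MYOF, a ferlin of membrane fusion and repair, read 129, 20.8, 25.9 and 61.2, a difference of 1.56. In these 4 genes MIF-KO ARP-1 was the lowest array and CTR-KO ARP-1 the highest.

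A second set of higher genes differed little between the lines under the control hairpin. PBK, a kinase of dividing cells, read 485, 201, 470 and 707, with a difference of 1.82 on the MIF-KO arrays and -0.04 on the CTR-KO arrays. HAPLN3, a hyaluronan link protein, read 72.8, 32.3, 71.1 and 115 (1.83 against -0.03). CCDC138, of less known function, read 76.0, 37.9, 84.7 and 121 (1.67 against 0.16). In all 3 the control arrays sat between a low MIF-KO ARP-1 and a high MIF-KO MM.1S. CDCA7, a MYC-responsive chromatin factor, read 69.0, 36.0, 48.1 and 131 (1.86). APOO, a subunit of the mitochondrial cristae complex, differed by 1.63 and RAPGEF5, a guanine nucleotide exchange factor for RAP proteins, by 1.52.

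The gene with the largest difference in the other direction was ASS1, which encodes argininosuccinate synthase, the enzyme that lets cells make arginine from citrulline. It read 59.8, 368, 217 and 70.3, a difference of -2.39 (5.24-fold lower in MM.1S), and 1.86 under the control hairpin. CD96, a nectin-binding receptor of T cells and NK cells, read 39.8, 97.2, 39.5 and 21.2, a difference of -2.19. PAPSS2, which makes the sulfate donor of sulfation reactions, read 210, 518, 105 and 127, a difference of -2.03. Intensity was highest on MIF-KO ARP-1 in all 3, and the lowest array was a different one in each.

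Further lower genes had several roles. HCP5, a non-coding gene of the HLA region, read 62.5, 421, 397 and 118 (-1.84), and a second probe set of the gene gave -1.81. FZD7, a WNT receptor, read 62.4, 173, 63.0 and 48.9 (-1.82). IGFBP4, an inhibitory binding protein of insulin-like growth factors, read 69.5, 192, 72.1 and 59.7 (-1.68). FZD7 and IGFBP4 stood out on MIF-KO ARP-1 alone, with the other 3 arrays close together, while HCP5 was high on both CTR-KO MM.1S and MIF-KO ARP-1. The zinc finger gene ZNF841 also stood out on that array alone (75.1, 236, 69.7 and 73.6; -1.68). EHD3, an endocytic recycling protein, read 25.4, 218, 57.5 and 74.3 (-1.55). MAML2, a coactivator of NOTCH receptors, differed by -1.73, or by -0.93 as the mean over its probe sets. PPIC, a peptidyl-prolyl isomerase, differed by -1.49. If the ARP-1 arrays are exchanged, as their descriptions would have it, 3 of the 12 largest higher genes stayed at least 1.5-fold higher in MM.1S (CDCA7, HAPLN3 and CCDC138) and 4 of the 12 lower genes stayed lower (CD96, PAPSS2, ZNF134 and CD37). ANXA1, ACTL8, MYOF, HCP5 and EHD3 were then at least 1.5-fold apart in the opposite direction.

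Replication genes were higher in MM.1S as a group. The genome is copied from origins at which ORC, CDC6 and CDT1 load the MCM helicase, and which GINS, CDC45 and MCM10 convert into active forks. Of 52 genes of this list, 26 were compared: 21 were at least 1.5-fold higher in MM.1S under the MIF hairpin and 0 lower, with a median of 0.95. The background was 8.22% of genes higher and a median of 0.05. All 26 differences were positive. Under the control hairpin 0 of the 26 were higher and 19 lower (median -0.75). In every one of the 26, CTR-KO ARP-1 and MIF-KO MM.1S were the upper 2 arrays. The direction therefore rests on the titles: with the ARP-1 arrays exchanged, 0 were higher and 1 lower (median -0.06).

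Within the helicase and its loaders, MCM10 read 732, 252, 455 and 869 (1.78). GINS2, a subunit of the GINS complex that activates the helicase, read 290, 73.9, 86.1 and 231 (1.64). GINS4 read 175, 77.6, 102 and 192 (1.31). On these genes MIF-KO ARP-1 was lowest and CTR-KO MM.1S next. MCM4, a subunit of the helicase ring, read 1061, 437, 577 and 1037 (1.25). TIPIN, which with TIMELESS stabilises the fork, read 327, 106, 117 and 268 (1.34). For both, the CTR-KO ARP-1 and MIF-KO MM.1S levels were within 1.5-fold of each other. The 5 members under 1.5-fold were FEN1, the flap nuclease of lagging-strand synthesis (0.58), GINS3 (0.54), DBF4, the activator of the CDC7 kinase (0.51), MCM6 (0.46) and RRM2, a ribonucleotide reductase subunit (0.43).

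**Figure D2:**
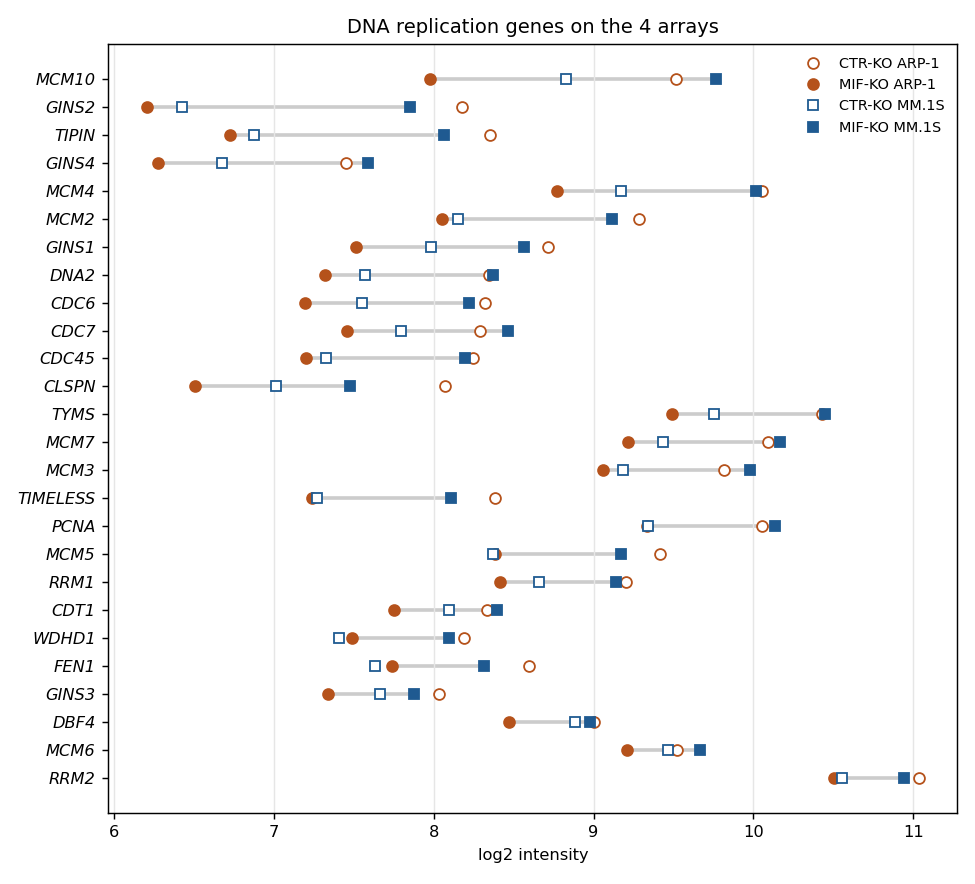
Log2 intensity of the 26 DNA replication genes on the 4 arrays; circles are ARP-1, squares MM.1S, open symbols the control hairpin, filled symbols the MIF hairpin, and a gray bar joins the filled pair. In every row the filled square and the open circle lie to the right of the filled circle and the open square.

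Promoters of many replication genes carry sites for E2F factors, the transcription factors that the retinoblastoma protein restrains until cells enter S phase. Because the replication genes were high and low together across arrays, their RefSeq promoters (250 bases before to 50 after the gene start, GRCh38.p14) were searched on both strands for the words TTTCCCGC, TTTGGCGC, TTTCGCGC and TTTGCCGC. Matches on the 2 strands can overlap. Such a word was found in 12 of the 22 replication genes with a promoter in the table (54.5%), in 341 of 5948 compared genes (5.73%) and in 908 of 27305 promoters in all (3.33%). It was found in 63 of 484 genes 1.5-fold higher in MM.1S (13%) and 7 of 239 lower genes (2.93%). The 484 include replication genes such as GINS2, MCM2 and CDC6, so their share is not separate from that of the list. Of these promoters, 3 are printed 5′ to 3′ on the strand of the gene, with the matched words in capitals, to show where the word lies in genes of the GINS complex, the helicase ring and its loader. GINS2 lies at chr16:85688905-85689204 on the minus strand, MCM2 at chr3:127598161-127598460 on the plus strand and CDC6 at chr17:40287629-40287928 on the plus strand.
GINS2: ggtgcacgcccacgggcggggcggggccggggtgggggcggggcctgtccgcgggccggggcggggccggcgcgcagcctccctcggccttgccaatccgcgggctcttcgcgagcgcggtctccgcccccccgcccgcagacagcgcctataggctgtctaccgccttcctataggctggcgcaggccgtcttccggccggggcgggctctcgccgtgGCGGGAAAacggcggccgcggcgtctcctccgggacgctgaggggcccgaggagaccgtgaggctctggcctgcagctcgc
MCM2: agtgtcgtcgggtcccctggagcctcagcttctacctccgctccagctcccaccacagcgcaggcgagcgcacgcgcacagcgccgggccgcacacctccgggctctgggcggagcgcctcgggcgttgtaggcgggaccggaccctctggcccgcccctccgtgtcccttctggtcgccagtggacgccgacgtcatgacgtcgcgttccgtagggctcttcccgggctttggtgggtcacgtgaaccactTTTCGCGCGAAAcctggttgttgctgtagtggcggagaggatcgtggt
CDC6: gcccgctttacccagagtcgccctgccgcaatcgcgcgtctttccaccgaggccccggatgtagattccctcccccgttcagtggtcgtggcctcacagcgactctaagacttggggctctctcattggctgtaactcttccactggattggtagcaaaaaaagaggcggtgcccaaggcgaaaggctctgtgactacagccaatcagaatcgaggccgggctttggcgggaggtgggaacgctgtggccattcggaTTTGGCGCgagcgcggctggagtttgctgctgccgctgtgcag
In MCM2 the capitals hold 2 overlapping matches, 1 on each strand, and in GINS2 and CDC6 they hold 1. The differences on the MIF-KO arrays were 1.64 for GINS2, 1.06 for MCM2 and 1.02 for CDC6. A match is a stretch of letters and not a measured binding site.

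The genes that govern entry into S phase were also higher. Of 20 compared, 9 were at least 1.5-fold higher in MM.1S (45%, against 8.22% of all genes) and 0 lower (median 0.45). Under the control hairpin 0 were higher and 8 lower (median -0.46). With the ARP-1 arrays exchanged, 0 were higher and 1 lower (median -0.14). CDC25A, the phosphatase that activates CDK2, read 295, 87.7, 109 and 224 (1.35). CDK6, the kinase partner of D-type cyclins, read 1005, 354, 558 and 840 (1.25). CCNE2 and CCNE1, the E-type cyclins, differed by 1.06 and 1.04. In all 4 genes the MIF-KO ARP-1 array was the lowest. E2F7, a repressor of the family, differed by 0.93, and also by 0.13 in the same direction under the control hairpin. Of 31 mitosis genes, 4 were higher (12.9%, near the 8.22% of all genes) and 0 lower (median 0.24, or -0.02 under exchanged ARP-1 labels), namely the checkpoint kinase TTK (0.73), the checkpoint protein MAD2L1 (0.73), the cytokinesis factor ECT2 (0.67) and CDK1 (0.65). The cyclin CCNA2 differed by 0.53.

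Growth-related lists followed the replication genes in direction. For nucleotide synthesis and salvage, 12 of 22 genes were higher in MM.1S (54.5%, against 8.22% of all genes) and 0 lower (median 0.61). Under the control hairpin 1 was higher and 11 lower (median -0.65). ADA, which deaminates adenosine, read 316, 91.9, 59.0 and 183 (0.99). PRPS1, which makes the ribose phosphate donor, read 544, 270, 328 and 521 (0.95). HPRT1, which salvages hypoxanthine and guanine, read 406, 213, 202 and 404 (0.92). Levels on CTR-KO ARP-1 and MIF-KO MM.1S were nearly equal for PRPS1 and HPRT1, and unequal for ADA. ADK and PFAS differed by 0.91 and 0.87. Under exchanged ARP-1 labels the list gave 1 higher and 1 lower (median -0.12).

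Among factors that assemble ribosomes and other MYC target genes, 9 of 31 were higher in MM.1S and 0 lower (median 0.45). The higher share was 29%, against 8.22% of all genes. Under the control hairpin 0 were higher and 21 lower (median -0.87), and with the ARP-1 arrays exchanged 0 were higher and 6 lower (median -0.39). RRS1, an assembly factor of the large ribosomal subunit, read 812, 181, 354 and 470 (1.38), LYAR, a nucleolar protein, 190, 62.4, 72.9 and 130 (1.06), and MRTO4, a large-subunit assembly factor, 474, 162, 182 and 321 (0.99). CTR-KO ARP-1 stood above all other arrays in these 3. MYC itself differed by -0.11. The cytosolic ribosomal proteins did not reach 1.5-fold in any of 42 genes (median -0.01).

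Subunits of RNA polymerase III, which transcribes tRNA genes, and of RNase P, which processes tRNA, gave 5 of 13 higher and 0 lower (median 0.43), where 8.22% of all genes were higher. Under the control hairpin 0 were higher and 4 lower (median -0.18), and under exchanged ARP-1 labels 0 and 2 (median 0.02). POLR3G read 541, 135, 120 and 349 (1.37) and RPP21 521, 168, 299 and 377 (1.16). RPP40 read 148, 24.0, 25.7 and 41.2 (0.78). RPP40 was high on CTR-KO ARP-1 alone, whereas POLR3G was high on both CTR-KO ARP-1 and MIF-KO MM.1S. Mitochondrial import and quality control gave 7 of 32 higher and 0 lower (median 0.41), a share of 21.9%. On the CTR-KO arrays 0 were higher and 12 lower (median -0.37), and under exchanged ARP-1 labels 0 and 1 (median -0.10). TRAP1, the mitochondrial HSP90 chaperone, read 1209, 503, 567 and 1202 (1.26), and TIMM21, PHB1, TIMM50 and TOMM40 differed by 0.84, 0.83, 0.69 and 0.68. Cytosolic heat shock genes gave 3 of 14 higher and 0 lower (median 0.19): the small heat shock protein HSPB1 (0.83), the HSP70 exchange factor HSPH1 (0.72) and the HSP90 cofactor CACYBP (0.61). Of the heat shock list 21.4% were thus higher, against 8.22% of all genes. This list gave 0 higher and 6 lower under the control hairpin (median -0.47), and 0 and 4 under exchanged ARP-1 labels (median 0.005). Whether the differences in these lists go with those of the replication genes was not tested.

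**Figure D3:**
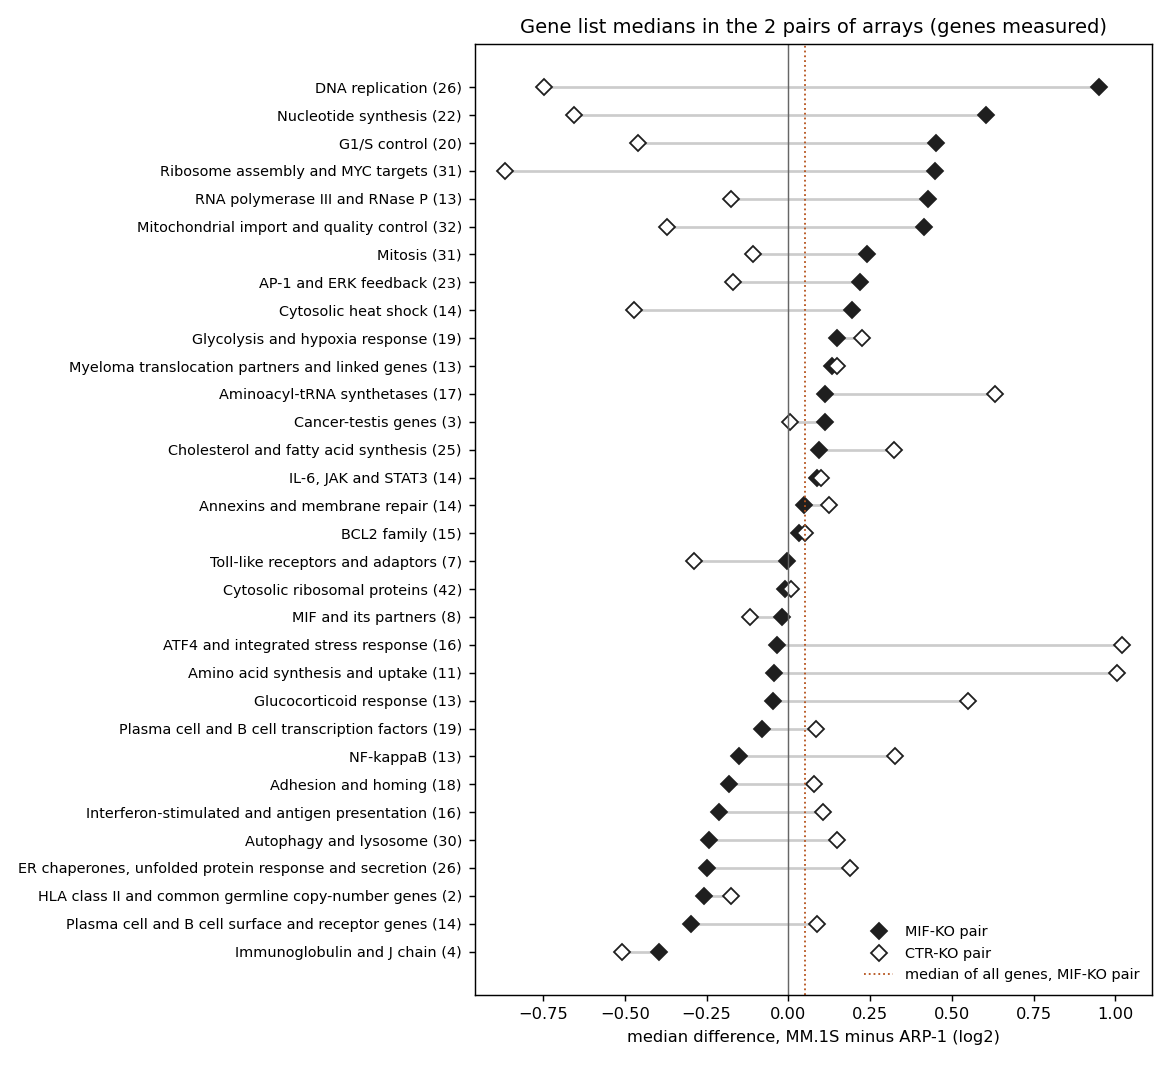
Median difference between MM.1S and ARP-1 (log2) for 32 gene lists, with the number of genes compared in brackets; filled diamonds are the MIF-KO pair, open diamonds the CTR-KO pair, and the dotted line is the median of all genes in the MIF-KO pair (0.05). The replication list has the largest filled value (0.95), and the ATF4 and amino acid lists have open values near 1 with filled values near 0.

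Going by the titles, stress response lists with higher medians in MM.1S under the control hairpin had medians near 0 under the MIF hairpin. ATF4 drives the integrated stress response, which amino acid shortage and endoplasmic reticulum (ER) stress turn on. Of 16 of its genes, 1 was higher in MM.1S and 1 lower on the MIF-KO arrays (median -0.03), against 11 higher and 0 lower on the CTR-KO arrays (median 1.02). The MIF-KO shares were 6.25% each, near the 8.22% higher and 4.37% lower of all genes. Over all genes on the CTR-KO arrays, 11.2% were higher and 11.1% lower. SESN2, a leucine sensor of the mTORC1 pathway, read 119, 858, 1179 and 703 (-0.29 against 3.31). STC2, a secreted glycoprotein, read 66.6, 415, 402 and 264 (-0.65 against 2.59). ATF3, a stress-induced transcription factor, read 22.5, 59.5, 81.3 and 91.8 (0.63 against 1.85). In all 3, CTR-KO ARP-1 was the low array and the other 3 were high. Under exchanged ARP-1 labels the list gave 10 higher and 1 lower (median 0.87). The difference between the pairs of arrays itself was not tested.

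Enzymes of amino acid synthesis gave 0 of 11 higher and 2 lower (median -0.04), against 9 and 1 under the control hairpin (median 1.01). The lower share on the MIF-KO arrays was 18.2%, against 4.37% of all genes, and rests on 11 genes. Over all genes under the control hairpin, 11.2% were higher and 11.1% lower. The lower genes were ASS1 and CBS, which makes cystathionine from homocysteine and serine and read 189, 477, 378 and 294 (-0.70). CTH, which releases cysteine from cystathionine, read 104, 948, 1087 and 775 (-0.29). PSPH, the last step of serine synthesis, differed by 0.57. CBS and CTH shared a low CTR-KO ARP-1 array. Under exchanged ARP-1 labels the amino acid list gave 7 higher and 0 lower (median 0.79). Of 17 tRNA synthetases, 1 was higher and 0 lower (median 0.11), namely HARS1 (0.63), while 9 were higher and 2 lower under the control hairpin (median 0.63). The higher share under the MIF hairpin was 5.88%, below the 8.22% of all genes. With the ARP-1 arrays exchanged, 10 synthetases were higher and 0 lower (median 0.62). The glucocorticoid response list gave 0 of 13 higher and 2 lower (median -0.05), against 5 and 1 under the control hairpin (median 0.55). Its lower share on the MIF-KO arrays was 15.4%, against 4.37% of all genes. The exchange gave 3 and 0 for the glucocorticoid list (median 0.16).

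Lists of the ER, the lysosome and interferon had negative medians on the MIF-KO arrays, with few members past 1.5-fold. Of 26 genes of ER chaperones, the unfolded protein response and secretion, 23 had a negative difference, 3 were at least 1.5-fold lower and 0 higher (median -0.25), so 11.5% were lower against 4.37% of all genes. Under the control hairpin 4 were higher and 1 lower (median 0.19), and under exchanged ARP-1 labels the median was -0.02. ERN1, which encodes the stress sensor IRE1, read 115, 528, 937 and 330 (-0.68). KDELR3, a retrieval receptor for ER proteins, differed by -0.64, and HYOU1, an ER chaperone, by -0.59. For ERN1 CTR-KO MM.1S was the highest array. Of 30 autophagy and lysosome genes, 24 had a negative difference, 2 were lower and 1 higher (median -0.24): the lysosomal protease CTSS (-0.69), the autophagy receptor SQSTM1 (-0.64) and the conjugating enzyme ATG3 (0.61). These shares, 6.67% lower and 3.33% higher, are near or below those over all genes. The median was 0.15 under the control hairpin and 0.009 under exchanged ARP-1 labels.

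Interferon-stimulated and antigen presentation genes gave 0 of 16 higher and 3 lower (18.8%, against 4.37% of all genes), with a median of -0.21. The control hairpin pair had 1 higher and 1 lower (median 0.11), and exchanged ARP-1 labels gave a median of -0.02. Besides HCP5, these were IRF9, the DNA-binding subunit of the interferon-activated ISGF3 complex (63.2, 130, 84.3 and 48.0; -1.44), and SP110, a nuclear body protein (95.7, 149, 99.6 and 59.6; -1.32). IRF9 and SP110 were highest on MIF-KO ARP-1 and lowest on MIF-KO MM.1S, with the control arrays between. Under the control hairpin they differed by 0.42 and 0.06.

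Among MIF and its partners, 3 of 8 compared genes were higher in MM.1S and 1 lower (median -0.02). These shares, 37.5% and 12.5%, rest on 8 genes, beside 8.22% and 4.37% of all genes. PRDX1, a peroxidase that binds MIF, read 925, 505, 383 and 1084 (1.10). CD44 read 140, 76.0, 104 and 139 (0.87), and COPS5, a COP9 signalosome subunit that binds MIF, read 192, 110, 176 and 179 (0.69). These 3 are the genes counted as higher, so their direction was fixed by the choice. Under the control hairpin they differed by -1.27, -0.44 and -0.12. There the list gave 1 higher and 1 lower (median -0.12), and under exchanged ARP-1 labels 1 and 1 (median 0.10). TXNIP, an inhibitor of thioredoxin, read 287, 1680, 1858 and 920 (-0.87), and its second probe set gave -0.98. CXCR4 read 317, 521, 420 and 385 (-0.44).

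Surface genes of plasma cells and B cells differed in both directions, with 2 of 14 higher and 2 lower (median -0.30). Each share was 14.3%, against 8.22% higher and 4.37% lower over all genes. SDC1, which encodes the plasma cell antigen CD138, read 471, 184, 337 and 471 (1.36). IL6R, the interleukin-6 receptor, read 741, 607, 250 and 932 (0.62). NCAM1, the adhesion molecule CD56, read 90.9, 352, 246 and 167 (-1.08). For SDC1 and NCAM1, MIF-KO ARP-1 was the extreme array, whereas IL6R stood out as low on CTR-KO MM.1S. SLAMF7, the target of the antibody elotuzumab, read 120, 122, 62.1 and 80.3 (-0.60), with both MM.1S arrays below both ARP-1 arrays. MZB1, an ER cochaperone of antibody assembly, read 566, 774, 615 and 399 (-0.96).

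Of 19 genes compared from the list of plasma cell and B cell transcription factors, 2 were higher and 2 lower (median -0.08). That is 10.5% each way, against 8.22% higher and 4.37% lower over all genes. IKZF3, the Aiolos factor degraded on lenalidomide, read 101, 97.4, 168 and 176 (0.85), and the zinc finger gene ZNF215 read 82.5, 65.1, 125 and 142 (1.12). Both were higher in both MM.1S arrays. FOXP1 and MEF2C differed by -0.62 and -0.59. Of 13 translocation partners and linked genes 0 reached 1.5-fold (median 0.13). MAF read 533, 783, 786 and 541 (-0.53), and NSD2, a histone methyltransferase gene of another myeloma translocation, differed by 0.56. MAF was therefore expressed well above the array median on all 4 arrays.

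Signalling and survival lists held single genes with larger differences. The interleukin-6 list had 7.14% higher and 7.14% lower, the AP-1 list 13% and 4.35%, and the NF-kappaB list 0% and 7.69%. Over all genes 8.22% were higher and 4.37% lower, and the counts of these lists lay near that. In the interleukin-6 and JAK list (14 genes, 1 higher, 1 lower, median 0.09), PIM2, a survival kinase of myeloma cells, read 2015, 2854, 1679 and 1186 (-1.27). In the AP-1 and ERK list (23 genes, 3 higher, 1 lower, median 0.22), JUN read 168, 469, 593 and 215 (-1.12). JUN was high on CTR-KO MM.1S and MIF-KO ARP-1, and PIM2 was lowest on MIF-KO MM.1S. The NF-kappaB list gave 0 of 13 higher and 1 lower (median -0.15): the deubiquitinase CYLD, an inhibitor of the pathway (-0.59). Of 7 Toll-like receptor genes, 2 were higher and 0 lower, with a median of -0.003 and 4 negative differences. The higher share of 28.6%, against 8.22% of all genes, rests on TLR4 and IRAK2, a kinase downstream of TLR4 (0.76). TLR4 was already named for its large difference.

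In the BCL2 family 2 of 15 genes were higher and 2 lower (median 0.03, or -0.01 after quantile normalization). Both shares were 13.3%, beside 8.22% higher and 4.37% lower over all genes. BCL2, the survival protein blocked by venetoclax, read 200, 807, 763 and 369 (-1.13). BCL2L11, which encodes the death-promoting BIM, read 44.2, 129, 89.3 and 56.3 (-1.19). BCL2A1, a survival protein, read 61.4, 22.1, 33.8 and 50.7 (1.20). MIF-KO ARP-1 was the highest array for BCL2 and BCL2L11 and the lowest for BCL2A1. PMAIP1, which encodes the death-promoting NOXA, read 71.4, 100, 156 and 177 (0.82), with both MM.1S arrays on top.

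Adhesion and homing genes gave 2 of 18 higher and 2 lower (median -0.18). This was 11.1% each way, beside 8.22% higher and 4.37% lower over all genes. GPR183, an oxysterol receptor that positions B cells, read 35.1, 50.8, 36.9 and 141 (1.47) and was high on MIF-KO MM.1S alone. CCR10, a homing receptor of antibody-secreting cells, read 32.7, 47.1, 36.9 and 27.6 (-0.77). The annexin and membrane repair list gave 2 of 14 higher (ANXA1 and MYOF) and 1 lower (EHD3), with a median of 0.05. These shares were 14.3% and 7.14%, beside 8.22% and 4.37% of all genes. All of these genes were already named among the 12 largest differences of their direction. Among metabolic lists, glycolysis and hypoxia gave 0 of 19 higher and 2 lower (median 0.15), with ADM at -0.70 and NDRG1 at -0.67. The lower share was 10.5%, against 4.37% of all genes. Under the control hairpin 8 were higher and 0 lower (median 0.22), and under exchanged ARP-1 labels 6 and 0 (median 0.37). Cholesterol and fatty acid synthesis gave 1 of 25 higher and 0 lower (median 0.09), with ACACA, the first committed enzyme of fatty acid synthesis, at 0.65. The higher share was 4%, below the 8.22% of all genes. On the CTR-KO arrays 7 were higher and 1 lower (median 0.32), and under exchanged ARP-1 labels 5 and 0 (median 0.11). In all, 20 of the 32 lists had medians of opposite sign in the pairs of arrays. With the ARP-1 arrays exchanged, 14 of the 32 medians had the other sign on the MIF-KO arrays.

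The difference between the lines was seldom the same under both hairpins. Of the 937 genes, 52 were also 1.5-fold apart in the same direction on the CTR-KO arrays (0.699% of all genes), 28 higher and 24 lower in MM.1S. They made up 5.55% of the genes called on the MIF-KO arrays and 3.13% of those called on the CTR-KO arrays. In the opposite direction were 363 genes (4.88% of all genes), 239 higher and 124 lower on the MIF-KO arrays, or 38.7% and 21.8% of the same lists. The other 522 did not reach the threshold on the CTR-KO arrays. Across the 7442 genes the differences correlated at a Pearson r of -0.37 and a Spearman rho of -0.37. Genes are not independent replicates, and the value is a description. With the ARP-1 arrays exchanged, 112 genes were apart the same way and 27 the opposite way.

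**Figure D4:**
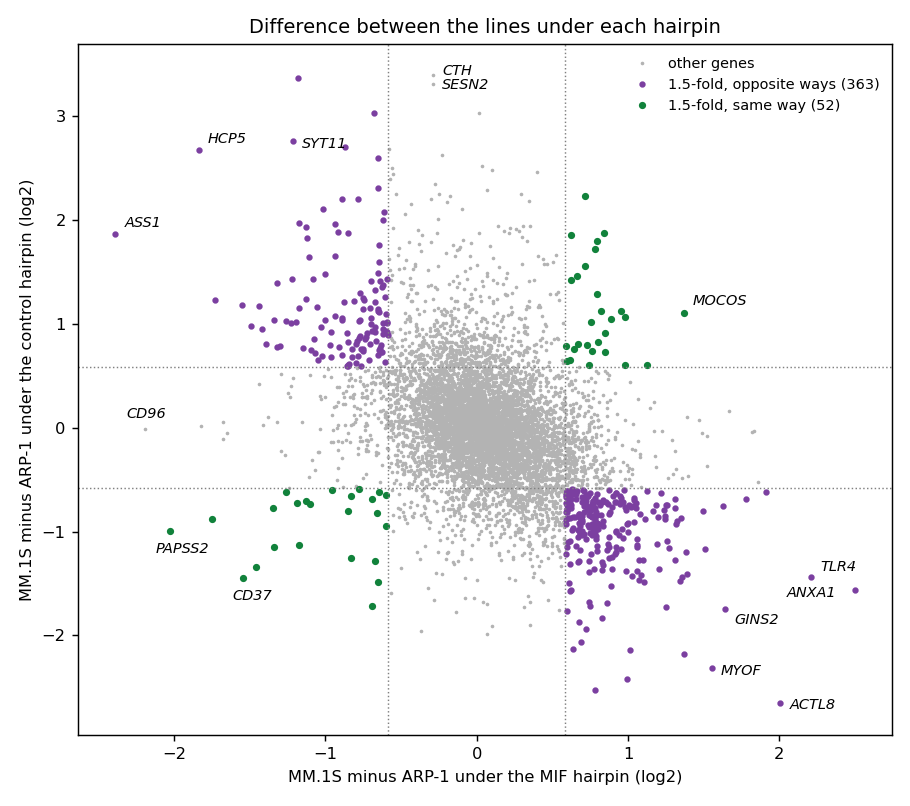
Difference between MM.1S and ARP-1 (log2) for 7442 genes under the MIF hairpin (x axis) and the control hairpin (y axis); dotted lines mark 1.5-fold. The 363 genes at least 1.5-fold apart in opposite ways lie at upper left and lower right, and the 52 apart in the same way at upper right and lower left.

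Several genes kept the order of the lines on both pairs. MOCOS, the sulfurase of the molybdenum cofactor, read 85.3, 90.9, 183 and 235 (1.37 and 1.11 on the CTR-KO arrays). GOLM1, a Golgi membrane protein, read 147, 187, 308 and 369 (0.98 and 1.07). OPN3, an opsin, read 22.1, 27.7, 48.1 and 53.6 (0.95 and 1.12). The arrays of each line lay close together for these genes, with MM.1S on top. NKD2, an antagonist of WNT signalling, read 67.5, 69.2, 139 and 128 (0.89), the pseudogene ADCY10P1 differed by 0.85 and the helicase DHX32 by 0.84. In DHX32 the ARP-1 arrays themselves lay more than 2-fold apart (37.1 and 85.8).

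Lower in MM.1S on both pairs was CD37, a tetraspanin of mature B cells, at 229, 300, 83.9 and 103 (-1.54 and -1.45). NCKAP1L, a WAVE complex subunit of blood cells, read 289, 245, 133 and 109 (-1.17 and -1.13). ANGEL1 read 61.8, 54.8, 26.0 and 30.8 (-0.83 and -1.25). In these genes the lines did not overlap and the arrays of a line were close. PAPSS2 also belonged here, as did the zinc finger genes ZNF134 (109, 206, 59.2 and 61.1; -1.75) and ZNF8 (46.6, 74.4, 27.4 and 29.3; -1.35).

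Opposite orders were strongest in ACTL8, GINS2, ANXA1, MYOF and TLR4 above, with HOMER1, a postsynaptic scaffold protein, at 206, 67.3, 77.4 and 176 (1.39 and -1.41). In the other direction, ASS1, HCP5 and MAML2 were joined by the following. TSPAN33, a tetraspanin of activated B cells, read 231, 630, 607 and 252 (-1.32 and 1.39). PLCL1, a phospholipase C-like protein, read 19.0, 49.5, 51.0 and 21.2 (-1.22 and 1.43). SYT11, a synaptotagmin, read 87.0, 755, 590 and 326 (-1.21 and 2.76). In TSPAN33 and PLCL1 the levels on CTR-KO ARP-1 and MIF-KO MM.1S were almost equal, and so were those on the other 2 arrays.

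The microRNA genes MIR221, MIR222 and MIR21 were singled out after their values were seen, since microRNA symbols were not part of the rule for naming genes. Of 195 microRNA genes compared, 8 were higher in MM.1S (4.1%, against 8.22% of all genes) and 17 lower (8.72%, against 4.37%), with a median of -0.02. The probe sets measure RNA of the gene and not the mature microRNA. MIR221 and MIR222, neighbours on the X chromosome, are printed because their mature forms share a seed (bases 2 to 8, in capitals), and MIR21, a microRNA known to be induced by STAT3 in myeloma, because it differed most of the 3. The sequences are RefSeq's, on GRCh38.p14: chrX:45746180-45746202 and chrX:45747036-45747056 on the minus strand, and chr17:59841273-59841294 on the plus strand.
hsa-miR-221-3p: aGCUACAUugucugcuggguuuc
hsa-miR-222-3p: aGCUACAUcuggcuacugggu
hsa-miR-21-5p: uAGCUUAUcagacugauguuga
MIR221 read 399, 593, 158 and 216 (-1.46, and -1.34 on the CTR-KO arrays) and MIR222 46.1, 61.3, 20.8 and 24.2 (-1.34 and -1.15). Both were lower on both MM.1S arrays than on both ARP-1 arrays. MIR21 read 42.6, 137, 41.1 and 43.7 (-1.65 and -0.05). It was high on MIF-KO ARP-1 alone.

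Genes were also grouped by chromosome, a view chosen after the values were seen. The 75 compared genes of chromosome 21 had a median difference of -0.29 on the MIF-KO arrays and -0.26 on the CTR-KO arrays. On the MIF-KO arrays 60 of them were lower in MM.1S, 15 by at least 1.5-fold, and 2 were higher by that much. Over all genes compared, 4.37% were lower and 8.22% higher by that much, with a median difference of 0.05. In both pairs 43 of the 75 were lower (57.3%), against 1189 of 7439 genes over all chromosomes (16%). Within a line, the median difference of these genes (MIF-KO minus CTR-KO) was 0.05 for ARP-1 and 0.003 for MM.1S. Chromosome 18 was higher in both pairs (0.15 and 0.16), while chromosome 13 had opposite signs (0.15 and -0.19).

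**Figure D5:**
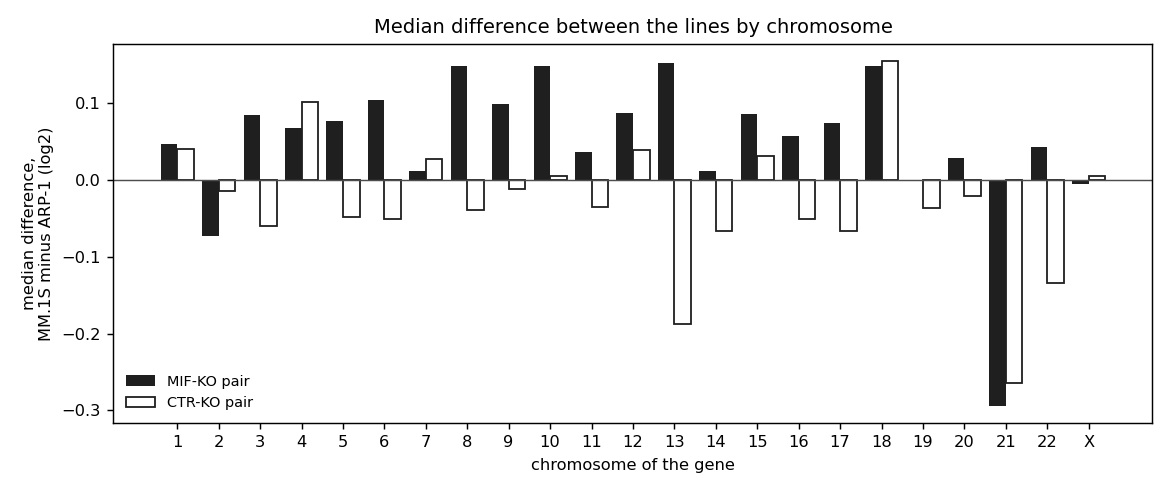
Median difference between MM.1S and ARP-1 (log2) by chromosome of the gene; black bars are the MIF-KO pair and white bars the CTR-KO pair. Chromosome 21 has the lowest median in both pairs (-0.29 and -0.26).

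RWDD2B, SON, TRAPPC10 and CSTB of chromosome 21 were picked, after the values were seen, for being lower in MM.1S in both pairs. That direction was thus fixed by the choice. RWDD2B read 77.4, 127, 46.8 and 55.9 (-1.19 and -0.72). SON, a splicing cofactor, read 412, 409, 263 and 270 (-0.60 and -0.65). TRAPPC10, a subunit of a vesicle tethering complex, read 441, 426, 332 and 316 (-0.43 and -0.41). In all 3 both MM.1S arrays lay below both ARP-1 arrays, with no overlap. The protease inhibitor CSTB read 478, 602, 376 and 417 (-0.53).

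Genes with more than 1 probe set give a view of measurement agreement within the MIF-KO pair. Over 289 such genes with a second probe set, the differences of the first and second correlated at r = 0.70 across genes. The SD of their disagreement was 0.28. Of 34 genes 1.5-fold apart by the first probe set, 31 had the same sign by the second and 13 were also 1.5-fold apart in the same direction. HCP5 and TXNIP were among these, while RPL23AP82, a pseudogene, gave -0.85 and 0.66.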

How the data were processed

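RNA of 4 samples was labelled with a whole-transcript kit, per the labels' protocols, and hybridised to 1 array each. The deposited values are intensities on a linear scale, from 2.74 to 15935. The submitters' processing notes list RMA and limma, without role or version. The genome build is not given in the sources used here. Log2 of the deposited intensities was taken with no pseudocount, and no further normalization. Of 53617 probe sets, 16098 had 1 gene symbol, 0 had several and 37519 none in the platform annotation. All 16098 matched a RefSeq gene (GRCh38.p14). The probe set of highest mean stood for each of 14884 genes, 779 of which had several. The upper 50% of genes by mean log2 level were kept.

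With 1 array a group, no test was possible, and "called" means at least 1.5-fold apart. Members and gene lists were chosen with earlier results of these data known. The named genes are MIF, the 12 largest differences per direction, 6 per direction shared by both pairs, 6 per direction opposite between them, and up to 5 per list. Symbols of microRNAs, small RNAs, open reading frames, antisense and Y-linked genes were left out of this rule. Genes of chromosome 21 were picked outside it, after the values were seen. The counting was checked on simulated data. Alternatives were the filter, a pseudocount of 16, scaling, the mean over probe sets and exchanged ARP-1 arrays. The number of arrays limits the precision. Python 3.11.15, pandas 2.3.3, numpy 2.4.6 and matplotlib 3.10.9 were used.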

Additional observations from a re-analysis of the deposited data

Results flagged for a closer look

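Differences between MM.1S and ARP-1 of opposite sign under the hairpins are given first, MIF-KO pair before CTR-KO pair. The difference between the pairs was not tested, since each group has 1 array. The median of the DNA replication list was 0.95 and -0.75, and that of the nucleotide synthesis list 0.61 and -0.65. Among genes higher in MM.1S under the MIF hairpin, ACTL8 had 2.01 and -2.65, GINS2 1.64 and -1.75, ANXA1 2.50 and -1.56, MYOF 1.56 and -2.31, TLR4 2.21 and -1.44, and HOMER1 1.39 and -1.41. Among lower genes, ASS1 had -2.39 and 1.86, HCP5 -1.84 and 2.67, TSPAN33 -1.32 and 1.39, MAML2 -1.73 and 1.23, PLCL1 -1.22 and 1.43, and SYT11 -1.21 and 2.76. Each of the 4 arrays takes part in 1 pair alone, so each such contrast rests on all 4 single arrays.

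The probe sets without a gene name here also held signal that the comparison of genes did not use. Probe set 16735837 differed by 3.09 between the MIF-KO arrays and by -1.13 between the CTR-KO arrays, and probe set 16650791 by -2.91 and 1.14.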

How the results depend on the processing

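Main counts were 612 genes higher and 325 lower in MM.1S, 52 the same way and 363 opposite. Without the level filter, 530 genes were lower and 90 the same way. With the filter at the upper quartile of gene means, 371 were higher, 135 lower, 17 the same way and 208 opposite, since fewer genes were compared. With log2(intensity + 16), 26 were the same way. With the ARP-1 arrays exchanged, as their descriptions name them, 112 were the same way and 27 opposite, while 513 were higher and 265 lower. Which assignment is right cannot be told from the labels alone. MIF read 1092 on the array titled CTR-KO ARP-1 and 541 on that titled MIF-KO ARP-1. The exchange would make it higher with the MIF hairpin in ARP-1. Every other count stayed within 1.5 times of its main value. Of 177 named differences, 15 moved by more than the disagreement between probe sets with the pseudocount (ANXA1 to 1.70) and 2 as means over probe sets (MAML2 to -0.93, TIRAP to 0.03); the medians of all 32 lists moved less than that under each alternative of pseudocount, scaling, filter and probe set, though 2 near 0 turned sign: the BCL2 family (-0.01, quantile normalization) and the Toll-like receptors (0.03, mean over probe sets). With the ARP-1 arrays exchanged, an alternative added for lists after the data were seen, the median of the DNA replication list reversed to -0.058 and that of nucleotide synthesis to -0.12; 9 further list medians moved and 21 did not, and 14 of the 32 in all changed sign. The median of chromosome 21 under other scalings was added after the data were seen and kept its sign. No paired analysis was possible because each line and hairpin has 1 array and the result comes from no test. Dim probe sets have no detection call here.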

Other observations

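Of the probe sets without a gene name here, 9408 reached the level filter of the genes. On the MIF-KO arrays 692 of them were at least 1.5-fold higher in MM.1S and 740 lower, 15.2% in all. Of the 7442 genes compared above, 12.6% were apart, 8.22% higher and 4.37% lower. At least 4-fold apart were 18 of these probe sets, 6 higher and 12 lower. With the CTR-KO arrays, 141 of the 9408 were apart the same way and 530 the opposite way. Among the 7442 genes these were 52 (0.699%) and 363 (4.88%).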
